A study of Caenorhabditis elegans with 2 samples.

Results

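The regions described here are stretches of the Caenorhabditis elegans genome that ranked high in both replicates of a chromatin immunoprecipitation sequencing experiment (ChIP-seq) on the transcription factor ELT-3. They were chosen by signal value. The 3000 regions with the highest deposited signal value were taken from the list of each replicate, and a replicate 1 region was kept where its summit lay within 150 bp of a summit among the 3000 of replicate 2. This gave 258 regions, called shared regions below, out of 3000. The other 2742 regions of replicate 1's 3000 are the set they are compared with, and are called the other regions. Each replicate's list held 30000 regions in all.

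The animals formed 1 group of 2 biological replicates. They were whole larvae of the L2 stage and of mixed sex, of strain OP75, which carries unc-119(ed3) III and the transgene wgIs75. The strain stably expresses ELT-3 with a GFP-FLAG tag at its C-terminus, so it holds extra copies of elt-3 sequence, and all animals carry both the transgene and the unc-119 mutation. No control sample was analysed here, and the labels do not say how the cultures were kept apart. Because the material was whole animals, stronger binding in few cells and weaker binding in many cells cannot be told apart.

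ELT-3 is a GATA factor of the hypodermis, the epithelium that covers the worm and secretes its collagen cuticle. GATA factors hold zinc fingers that contact short DNA sequences around the letters GATA, and the genes they act on in the hypodermis include collagens, junction proteins and peptides made in response to infection or injury. ELT-3 acts beside other GATA factors of the same tissue, among them ELT-1, EGL-18 and ELT-6.

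The strict GATA sequence was TGATAA, and both strands were searched up to 100 bp from each replicate 1 summit. Of the best-ranked shared regions that held it, 6 are printed to show the letters at the summits, with TGATAA or its reverse complement in capitals. Regions are named by the nearest start of a protein-coding transcript, coordinates are of build ce11 (WBcel235), and the letters are those of the RefSeq reference.
ZK899.6, chrX:9465775-9465975, plus strand: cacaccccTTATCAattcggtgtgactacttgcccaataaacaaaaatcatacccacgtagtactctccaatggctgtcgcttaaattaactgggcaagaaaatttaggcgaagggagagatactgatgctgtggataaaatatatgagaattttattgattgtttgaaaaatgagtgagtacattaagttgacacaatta
Y37A1A.2, chrIV:13919269-13919469, plus strand: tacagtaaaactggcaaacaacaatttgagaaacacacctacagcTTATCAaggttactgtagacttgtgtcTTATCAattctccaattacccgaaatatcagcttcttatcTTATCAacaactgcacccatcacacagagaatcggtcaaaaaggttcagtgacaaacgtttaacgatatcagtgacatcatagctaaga
nhr-3, chrX:14562810-14563010, plus strand: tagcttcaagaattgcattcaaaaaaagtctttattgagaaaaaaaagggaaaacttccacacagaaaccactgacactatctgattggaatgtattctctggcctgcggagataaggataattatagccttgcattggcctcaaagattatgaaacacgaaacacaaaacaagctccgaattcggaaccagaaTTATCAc
dkf-2, chrV:16778729-16778929, plus strand: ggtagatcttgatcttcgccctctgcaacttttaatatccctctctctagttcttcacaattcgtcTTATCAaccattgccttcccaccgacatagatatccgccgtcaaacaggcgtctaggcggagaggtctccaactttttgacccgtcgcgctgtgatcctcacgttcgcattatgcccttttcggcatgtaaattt
R03E9.2, chrX:6736427-6736627, plus strand: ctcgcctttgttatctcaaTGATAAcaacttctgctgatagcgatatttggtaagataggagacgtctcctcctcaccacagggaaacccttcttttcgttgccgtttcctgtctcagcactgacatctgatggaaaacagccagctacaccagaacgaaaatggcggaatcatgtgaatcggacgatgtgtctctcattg
fat-6, chrIV:11914878-11915078, plus strand: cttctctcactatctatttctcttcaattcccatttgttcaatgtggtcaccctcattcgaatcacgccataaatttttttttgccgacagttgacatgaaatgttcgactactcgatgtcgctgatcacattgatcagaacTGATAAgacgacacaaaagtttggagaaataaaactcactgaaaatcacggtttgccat
The region near Y37A1A.2 held 3 copies of TGATAA, and the region near nhr-3 held its copy at the edge of the window. The next 3 sequences are the shared regions of best rank that held no TGATAA. Capitals there mark the looser GATA forms, which were found near cest-16 and not near W02H3.3 or rpl-3.
W02H3.3, chrX:11094144-11094344, plus strand: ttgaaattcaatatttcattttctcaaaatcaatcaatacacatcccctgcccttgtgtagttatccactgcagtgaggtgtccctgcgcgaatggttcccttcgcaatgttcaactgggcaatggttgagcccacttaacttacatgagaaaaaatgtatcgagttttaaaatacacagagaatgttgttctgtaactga
cest-16, chrX:6296484-6296684, plus strand: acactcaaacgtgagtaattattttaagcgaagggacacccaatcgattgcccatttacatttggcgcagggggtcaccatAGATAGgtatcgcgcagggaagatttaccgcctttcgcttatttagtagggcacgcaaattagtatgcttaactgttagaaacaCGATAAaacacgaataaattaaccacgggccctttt
rpl-3, chrIII:3867448-3867648, plus strand: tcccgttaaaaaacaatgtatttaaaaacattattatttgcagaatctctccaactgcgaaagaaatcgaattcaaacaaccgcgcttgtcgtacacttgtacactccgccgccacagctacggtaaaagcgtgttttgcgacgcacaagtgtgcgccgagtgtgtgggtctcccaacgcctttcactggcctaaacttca
Best rank means the lowest value of the worse of a region's ranks in both replicates. By that order W02H3.3 and cest-16 came before every region with TGATAA.

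Small non-coding RNA genes lay beside some shared regions, and 2 of the 3 such regions of best rank follow. Capitals mark the bases of the small RNA gene that fall in the window, here a snoRNA gene that starts at the edge of the window at T03F7.7. The tRNA gene at xol-1 lies beyond the window's end, 199 bp from the summit, so no base of it is in capitals.
xol-1 with WBGene00022939, chrX:8036386-8036586, plus strand: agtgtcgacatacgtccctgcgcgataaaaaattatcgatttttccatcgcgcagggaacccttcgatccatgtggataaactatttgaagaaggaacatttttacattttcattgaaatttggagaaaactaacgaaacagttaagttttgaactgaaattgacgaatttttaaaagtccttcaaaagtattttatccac
T03F7.7 with T03F7.8, chrV:11314071-11314271, plus strand: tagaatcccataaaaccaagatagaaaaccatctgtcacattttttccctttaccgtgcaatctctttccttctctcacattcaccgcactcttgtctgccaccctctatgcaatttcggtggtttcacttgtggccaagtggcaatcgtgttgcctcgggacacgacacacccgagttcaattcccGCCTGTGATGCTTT
The window at xol-1 shares a stretch of letters with the windows at W02H3.3 and cest-16 above, which is described further on.

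Signal values of the shared regions ran from 14.6 to 48.8 in replicate 1, with a median of 17.2, and from 14.3 to 62.4 in replicate 2, with a median of 17.4. Among the other regions the replicate 1 values ran from 14.6 to 35.6, with a median of 16.3. The signal value is the authors' own score and its scale is not stated, so it is used to rank regions within a list. The median rank of the shared regions was 1114.5 in replicate 1 and 965.5 in replicate 2. Of the 258, 165 stood in ranks 1 to 1500 of replicate 1. The last region inside the threshold had 14.5582 and the next outside 14.5577 in replicate 1. In replicate 2 these values were 14.313 and 14.3125. Summits of a shared pair were 0 to 147 bp apart, with a median of 41.5 bp, and the nearest pair outside the rule was 151 bp apart. The 258 regions pair with 256 regions of replicate 2, because 4 of them share their partner with another, and 36 have another shared region within 10000 bp.

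**Figure D1:**
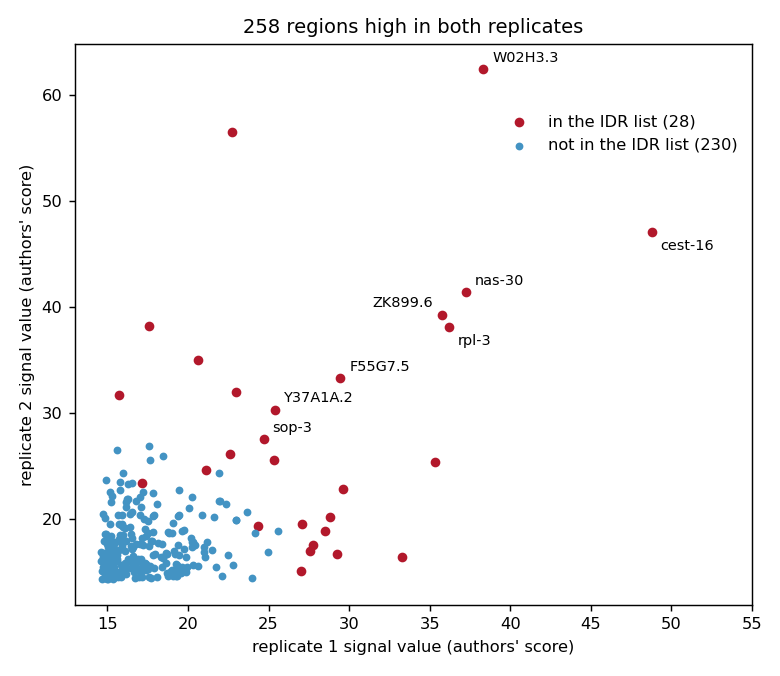
Signal value (the authors' score) in replicate 1 on the horizontal axis and in replicate 2 on the vertical axis, with 1 point for each of the 258 shared regions, in red where the region is in the authors' IDR list. The 8 regions of best rank are named, and most points lie at the low end of both axes, near the medians of 17.2 and 17.4.

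The order of the regions was only loosely shared. Spearman's rho between both signal values over the 258 regions was 0.228, given as a description, since both values chose the regions. The worse rank was within 100 for 10 regions, within 500 for 33, within 1000 for 67 and within 2000 for 168. Among the other 2742 regions, 765 (27.9%) had some replicate 2 region within 150 bp, at a median rank of 13087, and 1977 had none. The authors' own list of regions that passed a threshold on the irreproducible discovery rate (IDR) held 33 regions, which is 0.11% of the 30000 pooled regions, and 28 of them were shared regions. In the deposited values, 15 regions of replicate 2 (0.05% of its list) had a q-value under 0.05, and 11 were shared regions. The lowest deposited q-value was 0.0698 in replicate 1 and 0.0345 in replicate 2. Thus no region of replicate 1 was under 0.05, and most shared regions were above it in replicate 2 too. At fat-6, for example, the q-values were 0.418 in replicate 1 and 0.163 in replicate 2. The counts of shared regions in the IDR list and under the q-value rest on the signals that chose the regions. Nothing further is read from them.

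The region near W02H3.3 on chromosome X had the best rank, with signal values of 38.3 in replicate 1 and 62.4 in replicate 2. It lay between convergent genes, 3942 bp downstream of the start. The next was in an intron of mom-1, the enzyme that lipid-modifies Wnt proteins before secretion, with 48.8 in replicate 1 and 47.1 in replicate 2, and its nearest start was that of cest-16. These were the 2 highest values in replicate 1, and neither region lay near a start. The astacin metalloprotease gene nas-30 had a region 5011 bp upstream of its start, with 37.2 and 41.4 in replicates 1 and 2. That region, on chromosome I, had the best rank among the shared regions with TGATAA. ZK899.6 had its region 2530 bp downstream of the start, with 35.7 and 39.3. At rpl-3, a protein of the large ribosomal subunit, the region lay 306 bp upstream of the start, with 36.2 and 38.2.

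Replicates differed more at several regions of high rank. The region near nspc-17 had 22.8 in replicate 1 and 56.5 in replicate 2, where only W02H3.3 ranked higher. A region in a coding exon of meg-1, a protein of germline granules, had 35.3 and 25.4. R11A5.6 had 20.6 and 35.0 in a coding exon, at a place where it overlaps the gluconeogenic enzyme gene pck-2. In all 3 the values of both replicates are above their threshold, and the order of the replicates is not the same. The gene clec-89, a C-type lectin gene inside the muscle gene unc-89, was nearest to 3 shared regions, with 25.3, 21.0 and 17.1 in replicate 1, and 25.5, 17.4 and 15.5 in replicate 2. Both gtr-1 and lam-3, a laminin subunit gene, were nearest to 2 each, but both lam-3 regions pair with the same replicate 2 region. The remaining genes among the 25 of best rank were F55G7.5, Y37A1A.2, sop-3 (a Mediator subunit), xol-1 (the switch gene of sex determination), F20B6.9, nhr-3 and nhr-14 (nuclear receptors), zfh-2 (a homeobox factor), dlg-1 (a scaffold of the apical junction), sfxn-1.3, dkf-2 (a protein kinase D), K07A3.3, itx-1, Y41G9A.17, zfr-1 and col-94 (a collagen).

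Genes of the hypodermis stood near 32 shared regions (12.4%) and near 107 other regions (3.90%), counted by the nearest protein-coding start over 5 lists. The same share was 3.19% over replicate 1's whole list, and the lists hold 2.09% of the 19973 protein-coding genes. The regions near these genes lay within 2000 bp of the start in 27 of the 32 cases, and 7 held TGATAA. The lists were drawn up with earlier results of these data known, so the shares are a description with no test. The share was smaller where a single replicate chose the regions: it was 5.43% in the 258 highest regions of replicate 1 alone and 8.53% in those of replicate 2 alone.

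Cuticle collagen genes were nearest to 10 shared regions (3.88%) and 31 other regions (1.13%). The collagen regions with the best ranks were at col-94, rol-8, col-144 and col-165. At rol-8, mutated in animals that roll, the region lay 1404 bp downstream of the start and had 25.6 and 18.9 in replicates 1 and 2. The region at col-144 had 19.1 and 19.6, and that at col-165 had 20.3 and 17.8 inside its coding exon. None of these 3 had a TGATAA. The remaining collagen genes were sqt-2, col-75, dpy-3, col-123, dpy-13 and col-184, and only 1 of the 10 collagen regions was in a promoter window, from 1000 bp upstream to 200 bp downstream of a start. The summits at dpy-3, col-75 and col-184 were in coding exons of the collagens, whose windows had 58.2%, 56.2% and 62.7% GC.

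Genes for junctions, attachment, matrix and moulting were nearest to 10 shared regions (3.88%) and 38 other regions (1.39%). The gene lrp-1, whose megalin-like receptor is needed for moulting, was nearest to 3. They lay 1163 bp upstream and 8148 and 9920 bp downstream of its start, with 17.3, 17.2 and 17.6 in replicate 1, and 20.0, 22.6 and 17.4 in replicate 2. The dlg-1 region, with 22.0 and 21.7, lay on an exon outside coding sequence and UTRs, where dlg-1 and the non-coding RNA C25F6.26 overlap. At let-805, which encodes an attachment protein between hypodermis and muscle, the region was in a coding exon, 7438 bp from the nearest start, with 20.3 and 17.9. The gene osm-11, which encodes a secreted ligand of Notch receptors, had 2 regions, 1321 bp downstream and 188 bp upstream of its start, and each held 1 TGATAA. Their values were 21.0 and 16.8 for the downstream region and 15.5 and 14.5 for the upstream region.

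Regulators of hypodermal and seam fate were nearest to 5 shared regions (1.94%) and 6 other regions (0.219%). The region nearest to the start of egl-27, in an intron of this MTA-like regulator, had 27.6 and 17.0 in replicates 1 and 2 and held 1 TGATAA. A further shared region in a coding exon of egl-27, with 16.9 and 15.9, was nearest to another gene's start and not counted here. The elt-6 region lay in a coding exon of the neighbouring GATA gene egl-18, with 20.3 and 15.6. At pop-1, the TCF factor of the Wnt pathway, the region was in an intron with 14.9 and 14.4, close to the threshold in both lists. The remaining 2 lay in elt-3 itself. Counted over all GATA factor genes, which include egl-27, elt-6 and elt-3, there were 4 shared regions (1.55%) and 5 other regions (0.182%).

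The gene elt-3 lies on chromosome X from 13934874 to 13941216. Both of its shared regions were in an intron, 897 and 1852 bp downstream of the start. The first had 15.5 and 16.3 in replicates 1 and 2 and held 1 TGATAA, and the second had 15.2 and 21.6 with none. Within 50000 bp of the gene there were 3 shared regions, the third being that of meg-1, and 11 other regions. Since wgIs75 adds copies of this locus, the part of copy number in these values was not tested. No shared region lay at unc-119, whose best region had 15.7 at rank 1937 in replicate 1 and 7.35 at rank 27677 in replicate 2.

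Other hypodermal groups had fewer regions. Antimicrobial peptide genes of the epidermis had 3 shared regions (1.16%) and 6 other regions (0.219%). Both regions at nlp-33 lay close to its start, 14 bp upstream and 193 bp downstream, with 19.4 and 17.8 in replicate 1, but both pair with the same replicate 2 region of 20.3. The third was 498 bp downstream of the start of nlp-24, with 16.7 and 14.5. Hedgehog-related and patched-related genes had 4 shared regions (1.55%), at grl-16, grl-17, grl-21 and grl-30, and 26 other regions (0.948%). The astacin metalloproteases were not among the 5 hypodermal lists. Their 3 shared regions were all at nas-30, against 7 other regions.

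**Figure D2:**
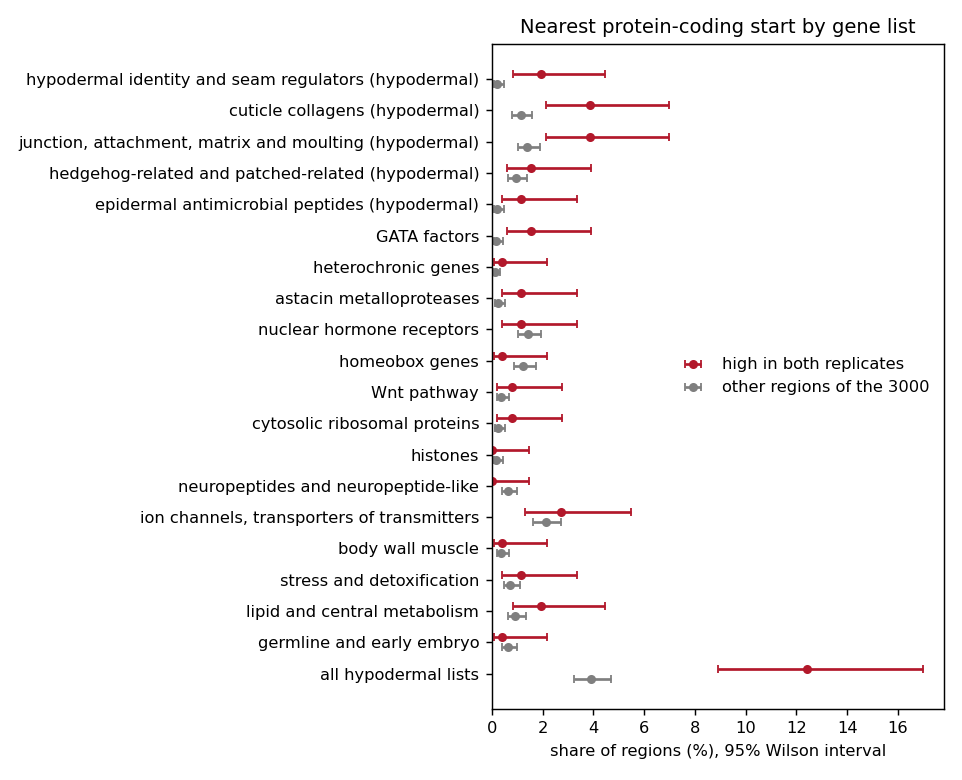
Share of regions, in percent with 95% Wilson interval, whose nearest protein-coding start belongs to each gene list, for the 258 shared regions in red and the other 2742 in grey. All hypodermal lists together reach 12.4% of shared regions and 3.90% of other regions. The lists were drawn up with earlier results of these data known, so the intervals are a description and not a test.

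The remaining gene lists, not counted as hypodermal, gave mixed counts. Nuclear hormone receptor genes were nearest to 3 shared regions (1.16%) and 39 other regions (1.42%), and homeobox genes to 1 shared region (0.388%), that of zfh-2, and 34 other regions (1.24%). Ion channel and transporter genes had 7 shared regions (2.71%) and 58 other regions (2.12%). The shared ones included those at mod-5, the serotonin reuptake transporter gene, and at the glutamate receptor gene glr-7. Neuropeptide and neuropeptide-like genes had 0 shared regions, with a Wilson interval up to 1.47%, and 17 other regions (0.620%). This count leaves out nlp-33 and nlp-24, which were placed with the antimicrobial peptides. Histone genes had 0 and 5. Genes of lipid and central metabolism had 5 shared regions (1.94%) and 25 other regions (0.912%). In that group, fat-6, a fatty acid desaturase gene, had its region in an intron 189 bp downstream of the start, with 17.9 and 20.3 in replicates 1 and 2 and the TGATAA printed above. The intron region of pck-2 had 17.1 and 23.4 and held 2 copies. Stress and detoxification genes had 3 shared regions, at ugt-15, ugt-31 and gst-33, and 20 other regions. Body wall muscle genes had 1, at unc-89, against 10, germline genes 1, at meg-1, against 17, and heterochronic genes 1, at lin-66, against 3. Wnt pathway genes had 2, at cest-16, which was put on the list because its region lies in mom-1, and at pop-1, against 10, and ribosomal protein genes had 2, at rpl-3 and rpl-12, against 7. The choice of cest-16 rested on these data, and the other lists were not treated in that way. Regions nearest to clec-89 but inside unc-89 were not counted under muscle. The R11A5.6 region inside pck-2 was not counted under metabolism.

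None of the placement classes tested differed detectably between the sets. Summits in the promoter window numbered 55 of 258 shared regions (21.3%, Wilson interval 16.8 to 26.7) and 644 of 2742 other regions (23.5%, 21.9 to 25.1), with an odds ratio of 0.883 and an adjusted p of 0.736 in Fisher's exact test, two-sided, with Benjamini-Hochberg adjustment over 15 measures. All adjusted p-values below are of this kind, and they count regions as units, so they do not measure the spread between replicates. Coding exons held 104 shared summits (40.3%) and 1181 other summits (43.1%), with an odds ratio of 0.893 and an adjusted p of 0.736. Coding exons make up 24.6% of the genome, so both sets lay in them more often than that share. Introns held 67 shared summits (26.0%) and 739 others (27.0%), and 66 shared summits (25.6%) and 659 others (24.0%) were intergenic, with adjusted p-values of 0.962 and 0.811. The widest ratio was in a class that was not tested, exons outside annotated coding sequence and UTRs, with 11 shared summits (4.26%, 2.40 to 7.47) and 52 others (1.90%, 1.45 to 2.48). When replicate 2 alone chose the regions, intergenic summits had an odds ratio of 1.47 with an adjusted p of 0.0340.

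Distances to starts were close in both sets. The median distance to the nearest start was 1231.5 bp for shared regions and 1294 bp for other regions. Summits over 2000 bp from a start numbered 81 (31.4%) and 922 (33.6%), with an adjusted p of 0.736. With a distance of over 5000 bp the shares were 12.4% of shared regions and 7.70% of other regions, with an odds ratio of 1.70 and an adjusted p of 0.0441, so the direction depends on the distance used. Among intergenic summits, 20 shared and 224 other lay between divergent genes, 35 and 376 between genes in tandem, and 11 (16.7%) and 58 (8.80%) between convergent genes. The region of best rank, at W02H3.3, was among the convergent ones.

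**Figure D3:**
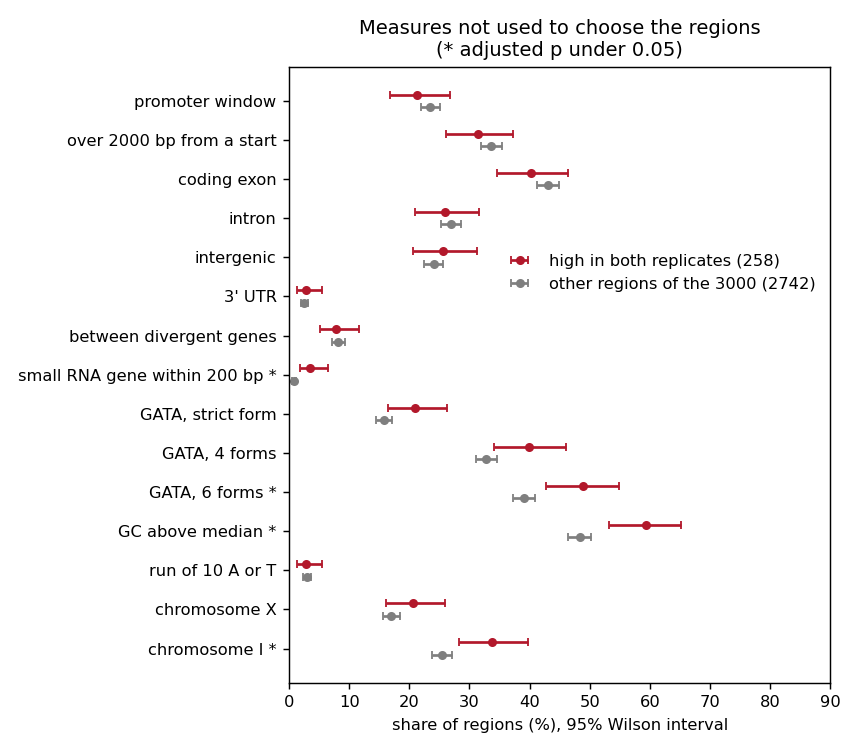
Share of regions in percent, with 95% Wilson interval, for the 15 measures that the rule did not use, in the 258 shared regions in red and the other 2742 in grey. Placement shares overlap, and the 4 starred measures, among them a small RNA gene nearby and a GC content above the median, have an adjusted p under 0.05.

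A small non-coding RNA gene lay nearby more often at the shared regions. A tRNA, rRNA, snRNA or snoRNA gene lay within 200 bp of 9 shared summits (3.49%, 1.85 to 6.50) and 22 other summits (0.802%, 0.530 to 1.21), with an odds ratio of 4.47 and an adjusted p of 0.00651. The share over replicate 1's whole list was 0.757%. The 9 included 6 at snoRNA genes and 2 at tRNA genes. The snoRNA gene T03F7.8 was 87 bp from a summit with 27.0 and 19.6 in replicates 1 and 2. Both values were above the medians of the shared regions. The tRNA gene WBGene00022939 was 199 bp from the summit at xol-1, and WBGene00023110 and WBGene00023111 were both near a summit with 18.2 and 17.8. The other snoRNA genes were F59C6.15, Y37E3.20, C51F7.3 with C51F7.4, T19B4.8 and F32E10.10. When replicate 2's own 258 highest regions were compared with the rest of its 3000, the odds ratio was 0.996. With replicate 1's own 258 highest it was 3.16 with an adjusted p of 0.105. Read at replicate 2's regions, the same pairs had an odds ratio of 3.23 and an adjusted p of 0.0595.

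GATA sequences were more frequent in the shared regions in the loosest form searched. TGATAA stood within 100 bp of 54 shared summits (20.9%) and 431 other summits (15.7%), with an odds ratio of 1.42 and an adjusted p of 0.0841. The 4 forms AGATAA or AGATAG and TGATAA or TGATAG stood at 103 (39.9%) and 899 (32.8%), with an odds ratio of 1.36 and an adjusted p of 0.0679. With CGATAA and CGATAG added, the 6 forms stood at 126 (48.8%) and 1072 (39.1%), with an odds ratio of 1.49 and an adjusted p of 0.0136. Each form contains the one before it, both strands were searched, and over replicate 1's whole list the shares were 16.4%, 33.9% and 41.2%. TGATAA had an odds ratio of 0.799 in replicate 1's own 258 highest regions against the rest of its 3000, and of 1.55 with an adjusted p of 0.0337 in those of replicate 2. The call for the 6 forms held under 10 of 23 alternatives. It was lost with 1000, 2000 or 5000 regions per list, with summits within 50 bp, with a reciprocal overlap by 50%, and when replicate 1 or replicate 2 alone chose the regions, with odds ratios of 1.11 and 1.19. Read at replicate 2's regions, the same pairs had an odds ratio of 1.14 and an adjusted p of 0.696. A match is a description of the letters and not a bound site.

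Among the shared regions, 11 held more than 1 TGATAA, against 52 other regions. Per 100 regions there were 26.0 copies in the shared and 17.7 in the other regions. The 6 forms occurred at 3.83 sites per kb within 40 bp of the shared summits, against 2.61 at the other summits. In the 4 bins of 40 bp out to 160 bp they occurred at 3.20 to 4.02 sites per kb in the shared regions and 2.55 to 3.04 in the other regions, and from 160 to 480 bp at 2.28 to 3.25 and 2.73 to 3.16. TGATAA had no peak at the shared summits, with 1.21 sites per kb within 40 bp, 1.60 between 120 and 160 bp and 1.41 between 400 and 440 bp. By rank, 6 of the 33 shared regions with a worse rank up to 500 held TGATAA (18.2%), and 22 of the 90 with worse rank from 2001 to 3000 (24.4%), so the best-ranked regions did not have the most.

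**Figure D4:**
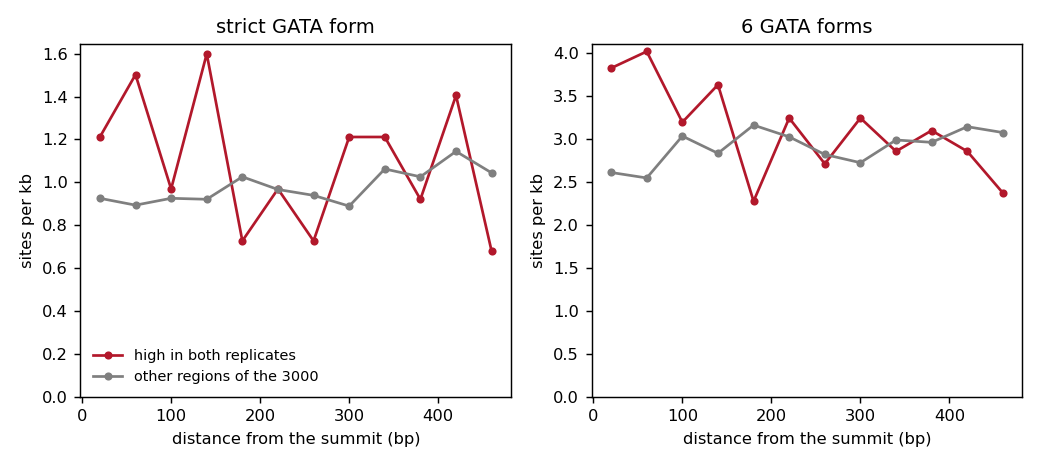
Sites per kb against distance from the summit in bins of 40 bp, for TGATAA on the left and the 6 GATA forms on the right, in the shared regions in red and the other regions in grey. The 6 forms reach 3.83 sites per kb in the bin at the shared summits, against 2.61 at the other summits, while TGATAA has 1.21 there and up to 1.60 farther out in the shared regions.

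The shared windows also held more G and C. Median GC content within 100 bp of the summit was 42.8% in shared and 40.8% in other regions. The median over all 3000 was exceeded by 153 shared regions (59.3%) and 1325 other regions (48.3%), with an odds ratio of 1.56 and an adjusted p of 0.00651. Over replicate 1's whole list the share above that median was 36.3%, lower than in both sets. Intergenic and intron summits had the same order, with medians of 41.0% and 40.8% in shared regions and 39.3% in both classes of other regions. The odds ratio was 1.16 and 1.38 when replicate 1 or replicate 2 alone chose the regions, and neither passed the test. Soft-masked bases, which mark repeats, had medians of 10.9% in shared and 14.9% in other windows. A run of at least 10 A or T stood in 7 shared and 80 other windows.

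Chromosome I held a large share of both sets. It carried 87 shared regions (33.7%, 28.2 to 39.7) and 696 other regions (25.4%, 23.8 to 27.0), with an odds ratio of 1.50 and an adjusted p of 0.0178. In replicate 1's own 258 highest regions the share was 41.1%, with an odds ratio of 2.13 and an adjusted p of 6.761e-07 against the rest of its 3000, and in those of replicate 2 it was 37.2%, with 1.72 and 0.00178. Both shares were above that of the shared regions, a difference that was not tested. The chromosome makes up 15.0% of the genome and 17.9% of replicate 1's whole list. Of 203 bins of 500000 bp, 7 held over 3 times the median number of the 3000 regions, and all 7 were on chromosome I. They carried 52 shared regions (20.2%) and 320 other regions (11.7%). Without them the odds ratio for chromosome I was 1.11 with an adjusted p of 0.814. Both nas-30 and sop-3 are on this chromosome, as are lrp-1 and clec-89. Only chromosomes I and X were tested, a choice made with earlier results of these data known, which the adjusted p-values do not cover.

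**Figure D5:**
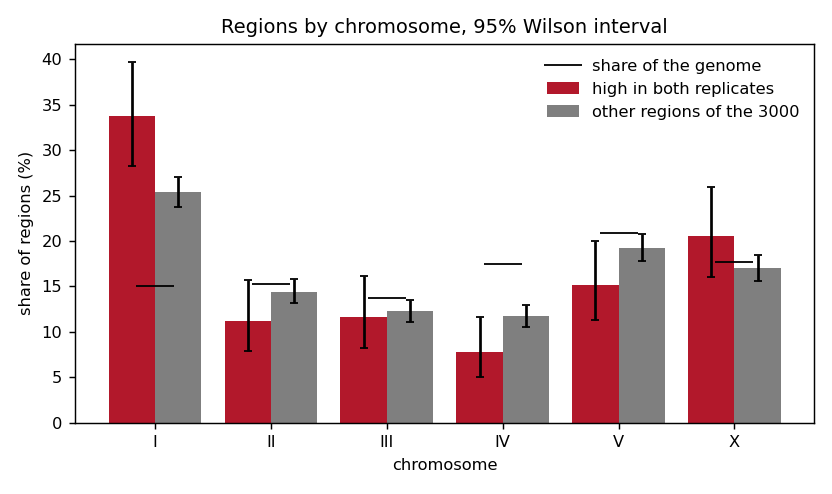
Share of regions on each chromosome in percent, with 95% Wilson interval, for the 258 shared regions in red and the other 2742 in grey, with the share of the genome as a black line. Chromosome I has 33.7% of the shared regions and 25.4% of the others, and chromosome IV has 7.75% and 11.7%.

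Chromosome X carried 53 shared regions (20.5%) and 466 other regions (17.0%), with an odds ratio of 1.26 and an adjusted p of 0.360. Of the 33 shared regions of worse rank within 500, 15 were on X (45.5%). In the classes from 501 to 1000, from 1001 to 2000 and from 2001 to 3000 the share was 6 of 34 (17.6%), 13 of 101 (12.9%) and 19 of 90 (21.1%), so it did not fall steadily with rank. With 1000 regions per list in place of 3000, the odds ratio was 2.36 with an adjusted p of 0.0377.

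Several of the best-ranked regions on X held the sequence TCGCGCAGGGA within 100 bp of the summit. It is the longest run of letters shared, on either strand, by the windows of the 2 regions of best rank, W02H3.3 and cest-16. It was picked after the windows had been read and so gets no test. On chromosome X this sequence is known as the core of a motif at the sites that recruit the dosage compensation complex, a condensin-containing complex that lowers gene expression from X in hermaphrodites. The copy and 10 bases on either side of it are shown for each copy within 150 bp of a shared summit, on the strand that holds it, with the copy in capitals.
W02H3.3, chrX:11094114-11094144, minus strand: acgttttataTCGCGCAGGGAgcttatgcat
W02H3.3, chrX:11094215-11094245, minus strand: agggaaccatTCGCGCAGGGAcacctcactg
cest-16, chrX:6296564-6296594, plus strand: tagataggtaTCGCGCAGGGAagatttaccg
xol-1, chrX:8036390-8036420, minus strand: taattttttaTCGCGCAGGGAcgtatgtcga
xol-1, chrX:8036423-8036453, plus strand: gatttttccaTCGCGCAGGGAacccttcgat
nspc-17, chrX:14525889-14525919, minus strand: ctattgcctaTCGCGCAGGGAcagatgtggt
F20B6.9, chrX:4209255-4209285, minus strand: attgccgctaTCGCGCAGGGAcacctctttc
Y41G9A.17, chrX:2997112-2997142, minus strand: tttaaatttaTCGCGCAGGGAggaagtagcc
F22H10.2, chrX:16682161-16682191, minus strand: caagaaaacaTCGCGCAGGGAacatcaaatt
These copies belong to 7 shared regions, all on X, and W02H3.3 and xol-1 have 2 copies each. Neither the 2742 other regions nor the 205 shared regions on other chromosomes held a copy within 100 bp, and the same 7 regions were the only ones to hold it among all 30000 regions of replicate 1 (0.0233%). The genome has 15 copies, of which 13 are on X. Of these 15, 9 were at the shared regions, and for the remaining 6 neither replicate's list had a summit within 150 bp.

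W02H3.3 and cest-16 gave the sequence because of their ranks, and the signal values chose all 7 regions, so the values that follow are a description. In replicate 1 their signal values were 38.3 at W02H3.3, 48.8 at cest-16, 23.0 at xol-1, 22.8 at nspc-17, 22.6 at F20B6.9, 28.8 at Y41G9A.17 and 15.7 at F22H10.2. In replicate 2 they were 62.4, 47.1, 32.0, 56.5, 26.1, 20.2 and 20.4 in the same order. F22H10.2 is named here for its sequence, after its values were seen. None of the 7 windows held TGATAA. The shorter GCGCAGGG, which TCGCGCAGGGA contains, stood in 8 of the 53 shared regions on X (15.1%), 1 of the 205 on other chromosomes, 0 of the 2742 other regions and 0.13% of replicate 1's whole list. Whether these regions would also be high with another factor was not tested.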

How the data were processed

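The files are lists of regions that the authors deposited for 1 group of 2 biological replicates, with no read totals, so depth is unknown. For each replicate and for both pooled, regions had been called against 1 control alignment and listed as peaks together with background, per the labels' file listing. The deposited signal value is a score of the authors' peak caller with no stated scale, and the deposited q-value is given as −log10 of q. Which aligner, caller and IDR threshold were used is not given in the sources used here.

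The ce11 lists were used with gene models of Ensembl release 115 and the RefSeq WBcel235 genome. The ce10 lists served only to count the shared regions again, as an alternative. Regions were ranked by signal value within each list, with ties ordered by position, and annotated at the replicate 1 summit. A summit took the first class that applied among coding exon, 5′ UTR, 3′ UTR, other exon, intron and intergenic. Fisher's exact test, two-sided, compared the shares, with Benjamini-Hochberg adjustment over 15 measures, and 95% Wilson intervals cover the counting of regions alone. Gene lists were compared by counts. The tools were scipy 1.17.1, pandas 2.3.3 and numpy 2.4.6 under Python 3.11.15, and the test was checked on simulated data.

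No sequence of chromosome I was printed. The members, the lists and the tests were chosen with earlier results of these data known, which the adjusted p-values do not cover. Named genes were the nearest starts of the 25 regions of best rank, up to 4 genes of each list in order of rank, genes nearest to more than 1 region, small RNA genes nearby, elt-3 and unc-119. Further genes of a list were named after their values were seen. Alternatives varied the number of regions, the summit distance, the ranking, the reference, the windows and the replicates. Restricting to GC classes, to summits outside coding exons or to windows with at most 50% soft-masked bases was chosen after seeing the data. One region near a small non-coding RNA gene is counted but its sequence and values are not reported here.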

Additional observations from a re-analysis of the deposited data

How the results depend on the processing

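Over 17 results and 327 alternatives, 280 left the call as it was. That count includes measures with no call in either setting, even where the direction changed. For the number of shared regions and the hypodermal share, which had no test, it means a value close to the main one. Among the called measures, a small RNA gene nearby kept its call in 14 of 20 alternatives and the 6 GATA forms in 10 of 23. GC content kept its call in 13 of 21 and chromosome I in 11 of 17. With 1000, 2000 or 5000 regions per list the shared regions numbered 67, 168 and 510. With summits within 50 bp they numbered 142, and without chromosome I 171. Odds ratios follow. Summits over 5000 bp from a start gave 1.70. For a small RNA gene nearby, the value was 2.07 with 5000 regions per list, 3.98 with summits within 50 bp, 3.23 from replicate 2's regions, 2.54 in the lower-ranked 1500 regions, and 0.996 to 3.16 when a single replicate chose the regions. The 6 GATA forms gave 1.28, 1.31 and 1.19 with 1000, 2000 and 5000 regions per list, 1.32 with summits within 50 bp, 1.37 with a reciprocal overlap by 50% and 1.14 from replicate 2's regions. They gave 1.31 in the better-ranked 1500, 1.36 against regions below rank 3000, 1.37 within 150 bp of the summit, 1.52 above the GC median, 1.58 at or below it, and 1.11 to 1.19 when a single replicate chose. All these values of the 6 forms missed the threshold, those of the GC classes with fewer regions. The 4 forms passed with ranking by q (1.38) and within 50 bp of the summit (1.61). TGATAA passed outside coding exons (1.75), and gave 0.799 to 1.55 when a single replicate chose. GC content gave 1.59 with 1000 regions, 1.57 with summits within 50 bp, 1.39 and 1.80 in the better-ranked and the lower-ranked 1500, 1.35 within 50 bp of the summit, 1.45 outside coding exons, and 1.16 to 1.38 with a single replicate, none of them past the threshold. Chromosome I gave 1.26, 1.52 and 1.43 with 1000 regions, with summits within 50 bp and from replicate 2's regions, 1.45 and 1.43 in those rank classes, and 1.11 without the dense bins. Chromosome X gave 2.36 with 1000 regions, and intergenic summits gave 0.969 to 1.47 with a single replicate. The hypodermal share was 5.43% to 8.53% with a single replicate. The cause of these shifts was not tested. No paired analysis was possible because the labels give a single group. The unknown depth and the unstated scale of the signal limit what ranks can show, and the p-values depend on neighbouring regions counting as separate units.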
